A study of Rattus norvegicus with 20 samples.

Results

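The genes described here are 100 rows of a gene table in which the ventral-to-dorsal difference had one direction in polyA-enriched libraries and the other direction in libraries depleted of ribosomal RNA (RBD). They were chosen by the measured means themselves. R, the log2 ratio of the mean ventral to the mean dorsal normalized count with 1 added to each mean, was computed in both library types, and a positive R means a higher level in the ventral hippocampus. Of 32883 rows, 12177 reached a mean of 50 normalized counts both in polyA and in RBD, 11426 of these had a mean below 5000 over all samples, and 11326 also had a mean level in RBD between 1/4 and 4 times that in polyA, with 5 added to both means. R was of opposite sign in 2658 of these 11326 rows (23.5%), and the 100 with the largest value of the smaller absolute R are the members. They made up 3.76% of the rows of opposite sign, and the 11326 rows within the level limits serve as their background.

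The samples came from male Wistar rats aged 3 months that had been handled and received no treatment. The dissected tissue held the hippocampal fields together with the dentate gyrus and subiculum, and the dorsal and ventral samples are its ends, without the stretch between them. A total of 7 animals gave the dorsal and ventral polyA samples and 3 other animals gave the dorsal and ventral RBD samples, so each animal supplied a pair of samples and 20 samples were compared. RNA of the polyA animals was extracted with Qiazol and that of the RBD animals with ExtractRNA, so library type, animals and extraction reagent cannot be told apart. Replicate numbers below stand for animals within a library type.

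The dorsal hippocampus is known mainly for its part in spatial learning and memory, and the ventral hippocampus for its part in emotional behaviour and the stress response. Many genes form gradients of expression between these poles. Enrichment with oligo(dT) beads keeps RNA that carries a poly(A) tail, while depletion of ribosomal RNA also keeps RNA without a tail and unfinished transcripts that still hold introns, so the same gene can be read through different RNA molecules in the libraries. The question addressed is which genes would be placed at opposite poles by these approaches, and how firmly the animals carry that placement. The rows bear no gene identifiers, so members are given by row number, and neither their functions nor the markers of the tissue could be looked up. In bulk tissue, fewer cells of a type and less RNA per cell cannot be told apart.

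The samples held 23825086 to 25262001 reads on genes in dorsal polyA and 24659949 to 25251109 in ventral polyA. RBD samples held fewer, namely 14920611 to 18282253 in dorsal RBD and 14991722 to 18647986 in ventral RBD. The members were weakly expressed genes for the most part. Their mean over all samples ran from 53.6 to 3374 normalized counts with a median of 127, against a median of 609 over the rows within the level limits. A mean below 300 was found for 77 of the 100 members and for 29.5% of the background, and 4 members had a mean of 1000 or more. The median number of reads behind a member's value in 1 sample was 130, and the lowest was 22.

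Among the members, 70 were higher in the ventral part in polyA and in the dorsal part in RBD, and 30 showed the reverse. This imbalance was strongest at the top of the ranking, with 21 of the first 25 members higher in the ventral part in polyA, 18 of the next 25, and then 15 and 16. Among the other 2558 rows of opposite sign the share was 44.1%. The absolute R of the members was 0.16 to 0.72 in polyA (median 0.22) and 0.16 to 1.39 in RBD (median 0.25). It was larger in RBD for 59 members and for 6424 of the 11326 background rows, a similar share. The medians over the background were 0.14 and 0.16, so the members' ratios were small in both library types and lay only moderately above those of a typical gene. The end of the ranking had no gap. The member at rank 100 had an R of 0.16 in polyA and -0.20 in RBD, and the first row left out had 0.16 and -0.17.

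**Figure D1:**
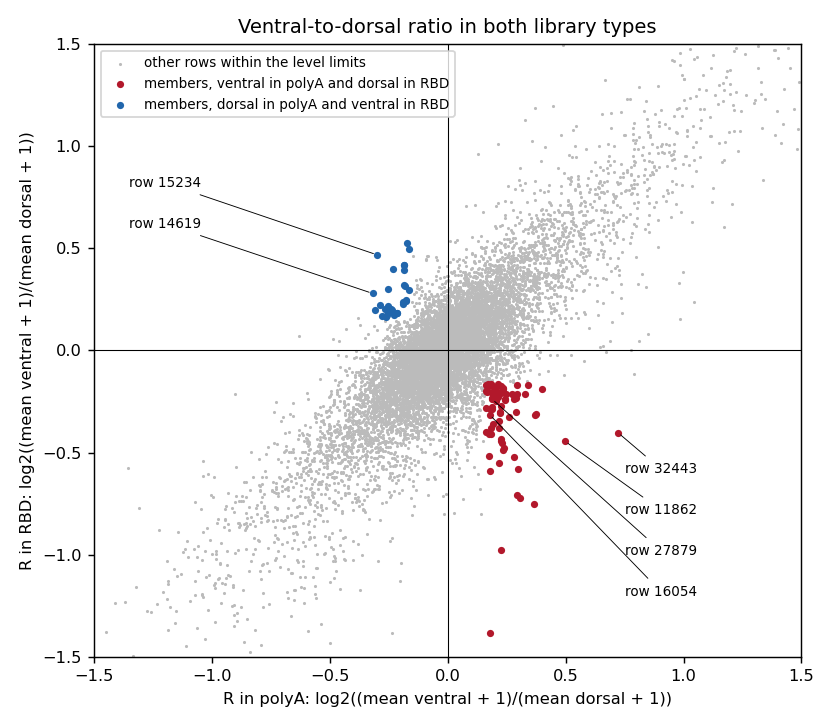
Each point is a row within the level limits, with R in the polyA samples on the horizontal axis and R in the RBD samples on the vertical axis (log2 scale; rows beyond the axis limits lie outside the plot). The grey cloud runs along the diagonal of equal direction, and the 70 members ventral in polyA (red) and 30 members dorsal in polyA (blue) lie off it on either side, most of them close to the cloud.

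Row 11862, ranked first, was among the weakest members. Its dorsal polyA samples had 26.1 normalized counts at the lowest, 38.7 at the median and 76.9 at the highest, and its ventral polyA samples 48.4, 61.3 and 97.3. The groups overlapped, yet the ventral sample was the higher of the pair in 7 of 7 polyA animals. In RBD replicates 1, 2 and 3 the dorsal samples had 31.4, 104 and 40.3 normalized counts and the ventral samples 28.4, 69.1 and 30.9. The dorsal sample was the higher in 3 of 3 animals, but replicate 2 was far above the others in both parts, and the gap in replicate 1 was 31.4 against 28.4. R was 0.50 in polyA and -0.44 in RBD, where it was -0.27 without replicate 2. The level itself did not differ between the libraries beyond the spread between animals, with a log2 difference of RBD to polyA of -0.21 (SE 0.30, limma adjusted p = 0.56, n = 7 and 3 animals).

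Row 32443, ranked second, had the largest polyA ratio of all members. Its dorsal polyA samples had 45.7, 55.5 and 66.0 normalized counts at the lowest, median and highest (mean 56.4 ± 9.30, SD, n = 7), and its ventral polyA samples 86.8, 92.8 and 99.3 (93.7 ± 5.03, SD, n = 7). These groups did not overlap. In RBD the dorsal samples had 145, 82.6 and 156 normalized counts in replicates 1, 2 and 3, and the ventral samples 141, 80.7 and 68.8. The RBD groups overlapped, and the dorsal excess rested on replicate 3, whose log2 ratio of ventral to dorsal was -1.17 while those of replicates 1 and 2 were -0.05 and -0.03. R was 0.72 in polyA and -0.40 in RBD, where it was -0.04 without replicate 3 and -0.67 without replicate 1. Averaged over the parts, the row was also higher in RBD than in polyA, by 0.55 on the log2 scale (SE 0.15, limma adjusted p = 0.00518). By part, the log2 ratio of the RBD mean to the polyA mean was 1.17 dorsally and 0.04 ventrally.

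Row 15234 led the members that were dorsal in polyA and ventral in RBD. Its dorsal polyA samples had 81.0, 105 and 165 normalized counts at the lowest, median and highest, and its ventral polyA samples 76.8, 88.0 and 105. The ranges overlapped widely, with the highest dorsal value in replicate 7, and the dorsal sample was the higher in 6 of 7 animals. In RBD the dorsal samples had 61.3, 80.2 and 80.5 normalized counts and the ventral samples 125, 86.4 and 96.8. The RBD groups did not overlap, and replicate 1 held both the lowest dorsal and the highest ventral value. R was -0.30 in polyA and 0.47 in RBD, where it was 0.19 without replicate 1. The difference in level between the libraries was -0.18 on the log2 scale (SE 0.13, limma adjusted p = 0.22).

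Row 14619, the second of this kind, had 89.9, 102 and 157 normalized counts at the lowest, median and highest of its dorsal polyA samples and 71.4, 80.4 and 118 in its ventral polyA samples. The ranges overlapped, while within animals the dorsal sample was the higher in 7 of 7. Its dorsal RBD samples had 74.2, 69.5 and 78.1 normalized counts and its ventral RBD samples 108, 84.1 and 77.2. Replicate 3 went against the other RBD animals by a small margin, with a log2 ratio of -0.02 beside 0.54 and 0.27. R was -0.32 in polyA and 0.28 in RBD, where it was 0.13 without replicate 1. The log2 difference of level was -0.27 (SE 0.15, limma adjusted p = 0.12).

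Each library type was then fitted alone with limma, with an adjusted p below 0.1 as the threshold. The rule used the same contrast, so the counts that follow describe the members and test nothing. In polyA, 57 members passed, 44 of them with ventral and 13 with dorsal excess, while 52.9% of all 15152 genes tested passed, 25.3% with ventral and 27.5% with dorsal excess. In RBD, 8 members passed, 2 with ventral and 6 with dorsal excess, against 28.4% of 14699 genes, 14.4% and 14% by direction. Without polyA replicate 2 the polyA count was 34, and without RBD replicate 3 the RBD count was 2. Over all genes, 7450 of 15174 and 2178 of 14785 passed in these settings. The standard error of the members' log2 fold change had a median of 0.10 in polyA and 0.20 in RBD, and those of all genes tested were 0.062 and 0.11. The difference was past the threshold in polyA alone for 55 members, in RBD alone for 6, in both for 2 and in neither for 37. Over all genes tested in both library types, 3511 of 14174 passed in both, and 8 of these had opposite directions. The classes of polyA alone, RBD alone and neither were not counted over all genes. The members' counts in these classes therefore have no background and do not set the members apart.

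With the animal as a block, which compares the parts within each animal, 85 members passed in polyA, where 59.8% of the genes tested did. In RBD, 36 members passed with the block, against 40.1% of the genes tested. The members past the threshold in both library types with opposite directions were 2 without the block and 31 with it. Over the 14174 genes tested in both, opposite calls were found for 0.0564% without and 0.649% with the block. The interaction of part and library type, fitted with the animal as a block, passed for 68 members (51 with a more dorsal and 17 with a more ventral ratio in RBD) and for 10.2% of the 14174 genes. This contrast is also what the rule selected on. The interaction passed for 2 members without the block, for 21 with DESeq2 and for 26 when RBD replicate 3 was left out. Over all genes it passed for 28 of 14174, 642 of 14174 and 459 of 14231 in these settings. The interaction was met by 41 of the 55 members past the threshold in polyA alone and by 20 of the 37 past it in neither. Its share in these classes over all genes was not counted.

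The 2 members past the threshold in both library types without the block were rows 16054 and 27879, which were named after their values had been seen. Row 16054 was 1 of the 4 members with a mean of 1000 or more. Its dorsal polyA samples had 2606, 2922 and 3118 normalized counts at the lowest, median and highest, and its ventral polyA samples 2800, 3230 and 3647. The groups overlapped, with replicate 1 as the only polyA animal in which the dorsal sample was the higher. In RBD the dorsal samples had 2069, 2429 and 1927 normalized counts and the ventral samples 1705, 1868 and 1593, without overlap and with the dorsal sample the higher in 3 of 3 animals. R was 0.18 in polyA and -0.31 in RBD, and the level in RBD was lower than in polyA by a log2 difference of -0.69 (SE 0.063, limma adjusted p = 6.95e-07).

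Row 27879 had 399, 446 and 478 normalized counts at the lowest, median and highest of its dorsal polyA samples and 464, 512 and 523 in its ventral polyA samples. The overlap was slight, and the ventral sample was the higher in 7 of 7 animals. Its dorsal RBD samples had 991, 1109 and 1051 normalized counts and its ventral RBD samples 908, 945 and 818, again without overlap. R was 0.19 in polyA and -0.24 in RBD, with the same sign in every animal of a library type, and the log2 ratios of single animals ran from 0.10 to 0.29 in polyA and from -0.36 to -0.13 in RBD. Its level in RBD was higher than in polyA by 1.04 on the log2 scale (SE 0.050, limma adjusted p = 3.25e-09), and every RBD sample lay above every polyA sample.

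**Figure D2:**
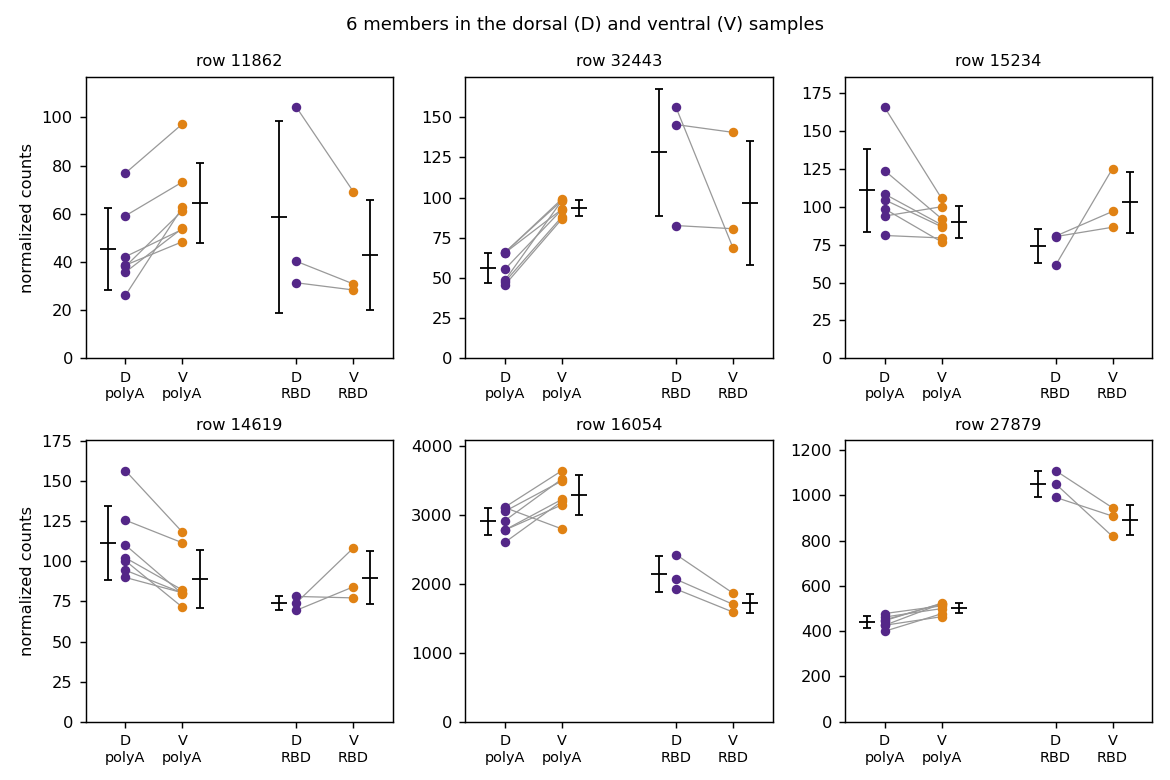
Normalized counts (vertical axis, from 0) of 6 members in the dorsal (D) and ventral (V) samples of both library types, with 1 point per sample, a grey line joining the samples of an animal, and bars for the mean ± SD (n = 7 polyA and 3 RBD animals). Rows 16054 and 27879 slope in opposite directions in the libraries, except for polyA replicate 1 of row 16054, while the RBD slope of row 32443 comes mostly from 1 animal.

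The most negative RBD ratios belonged to rows 31886 and 24424, which were likewise picked after their values had been seen. Row 31886 had an R of -1.39 in RBD. Its dorsal RBD samples had 71.3, 77.8 and 322 normalized counts and its ventral RBD samples 45.1, 44.9 and 88.4, so that dorsal RBD replicate 3 alone was several times above the rest. In polyA, its ventral sample was the higher in 4 animals and the lower in the other 3, with an R of 0.18. Row 24424 had an R of -0.98 in RBD, where the dorsal samples had 766, 983 and 940 normalized counts and the ventral samples 494, 464 and 407. The RBD animals were alike here and the polyA animals were not. The dorsal samples of polyA replicates 5 and 7, with 689 and 628 normalized counts, lay above their ventral partners (483 and 574), whereas the dorsal samples of the other polyA animals ranged from 263 to 409, below their ventral partners.

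How far single animals followed R differed between members. The ventral-to-dorsal ratio had the sign of R in 82 to 96 of the 100 members in each of the polyA animals, and in 83, 83 and 93 members in RBD replicates 1, 2 and 3. All 7 polyA animals followed R for 43 members (45.4% of the background), 6 of 7 for 36, 5 of 7 for 15 and fewer for 6. All 3 RBD animals followed it for 60 members (61.5% of the background), 2 of 3 for 39 and 1 of 3 for 1. All 10 animals followed it for 25 members, 19 of them ventral in polyA and 6 dorsal in polyA. The same was true of 3.32% of the other rows of opposite sign and of 44.3% of the rows with the same sign in both library types. The 25 members had a median absolute R of 0.23 in polyA and 0.24 in RBD and a mean level of 53.6 to 867 normalized counts. The dorsal and ventral samples did not overlap in polyA for 6 members (24.1% of the background) or in RBD for 21 members (40.2% of the background), and in both library types for none (2075 of the 11326 background rows).

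**Figure D3:**
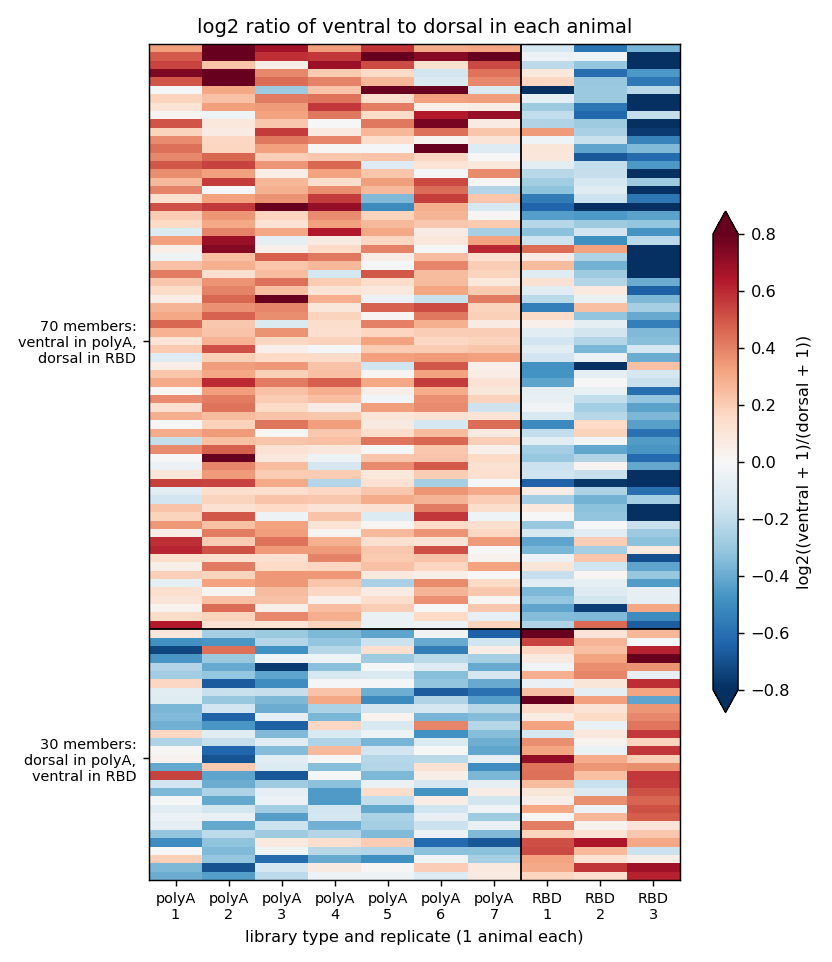
Log2 ratio of the ventral to the dorsal sample (colour; 1 added to each value) of the 100 members (rows, in the order of their rank within each direction) in the 7 polyA and 3 RBD animals (columns). Red is higher in the ventral and blue in the dorsal part, and the colour scale is cut, so the largest ratios look alike. RBD replicate 3 had the highest median absolute ratio (0.43), and pale or opposite cells occur in every column.

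Among the RBD animals, replicate 3 most often gave the members their largest ratios. It had the largest absolute ratio for 67 members, replicate 1 for 19 and replicate 2 for 14, while replicate 3 took 37.5% of the background and 48.7% of the other rows of opposite sign. The median absolute log2 ratio of the members was 0.21 in RBD replicate 1, 0.24 in replicate 2 and 0.43 in replicate 3. Of the 70 members that were dorsal in RBD, 39 had their highest RBD value in dorsal replicate 3, 22 in dorsal replicate 2 and 8 in dorsal replicate 1. Dorsal replicate 3 held the highest RBD value for 16.4% of the background, which holds rows of both directions. The rule chose these 70 members as dorsal in RBD, so their highest value falls mostly in a dorsal sample by construction. The shares are therefore not alike, and rows dorsal in RBD were not counted apart. Of the 30 members that were ventral in RBD, 13 had their highest RBD value in ventral replicate 1, and 14 had their lowest in dorsal replicate 3. Without RBD replicate 3, R in RBD changed sign for 6 members and its median absolute value was 0.19. Without replicate 1 or 2 it changed sign for 2 and 0 members, with medians of 0.32 and 0.30. In polyA no member's R changed sign without any 1 animal, although replicate 2 had the largest absolute ratio for 31 members and dorsal replicate 2 held the lowest polyA value for 24 of the 70 members that were ventral in polyA. What sets RBD replicate 3 or polyA replicate 2 apart was not tested.

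The members' ratios are by construction those that the chosen animals favour, so the direction was also read in animals that the choice had not used. The rule was applied to 9 animals, and the ratio of the left-out animal was set against R of its library type in the others. When a polyA animal was left out, 68 to 90 of the 100 rows chosen without it had the direction of the other polyA animals (median 78 over the 7 animals). When RBD replicates 1, 2 and 3 were left out, 58, 50 and 71 of 100 rows did. Rows with the same sign in both library types followed the others in 79.2% to 85.5% of cases for a left-out RBD animal and in 83.6% to 86.9% for a left-out polyA animal. The other rows of opposite sign did so in 51.6% to 64.0% and 52.8% to 76.3% of cases. The size of the ratio fell off as well in each left-out RBD animal. Taken in the direction of R, the median log2 ratio in the left-out RBD animals 1, 2 and 3 was 0.052, 6.14e-05 and 0.18, where the other RBD animals had given median absolute values of 0.29, 0.28 and 0.22. In the left-out polyA animals it was 0.11 to 0.24, beside 0.21 to 0.23 in the others. It was below the value of the others for each polyA animal except replicate 2 (0.24 against 0.21). The rows chosen without an animal shared 81 to 88 rows with the members for a polyA animal and 60 to 68 for an RBD animal. The direction was thus kept by most rows in each left-out polyA animal, and by as few as 50 of 100 rows in a left-out RBD animal.

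**Figure D4:**
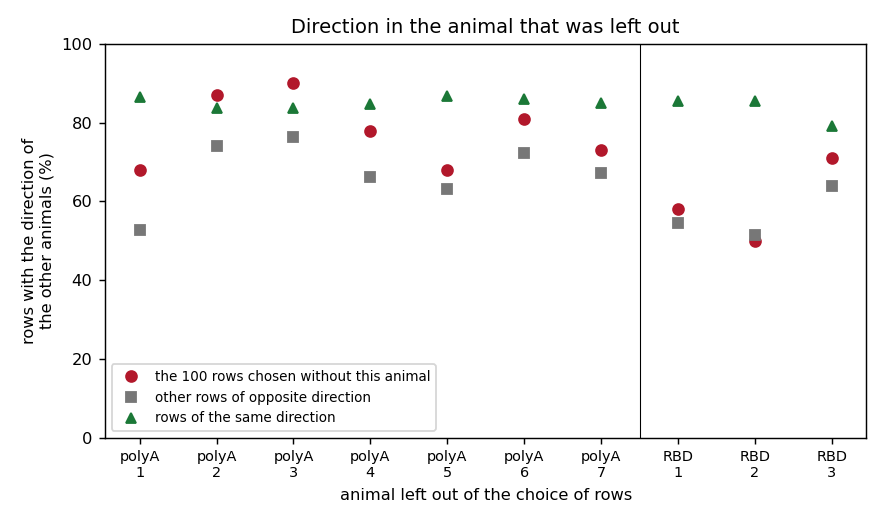
Share of rows (vertical axis, in percent) whose ventral-to-dorsal ratio in a left-out animal had the direction of the other animals of its library type, for each of the 10 animals (horizontal axis). The 100 rows chosen without the animal (red) lie between 68 and 90 for polyA and at 58, 50 and 71 for RBD, against 79.2% to 86.9% for rows of the same direction (green).

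The spread between animals was set beside the spread that counting alone gives. The SD of the members' log2 ratio between animals had a median of 0.195 in polyA and 0.258 in RBD, and the SD computed from the number of reads was 0.177 and 0.208. The SD between animals was below the counting value for 36 members in polyA and for 33 in RBD. The same held for 2377 and 4078 of the 11326 background rows. For the background, the SDs between animals were 0.115 and 0.122 and the counting SDs 0.080 and 0.095. The counting error of the members' ratios was thus wider than that of a typical background row. The deviations of different members were weakly related across samples. The mean correlation between the 70 members that were ventral in polyA was 0.15 in polyA and 0.21 in RBD, and that between the 30 others 0.023 and 0.085. Over all 100 members, of both directions, it was 0.049 and 0.054. Between background rows, which also mix both directions, it was 0.0036 and 0.0014. These are descriptions over 14 and 6 samples that share animals.

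The overall level in RBD against polyA was bounded by the rule but its direction was not used. Per animal, the log2 values of both parts were averaged and the libraries compared with limma over 7 and 3 animals. The level differed for 65 members, 36 of them higher and 29 lower in RBD, and for 75.3% of the 14174 genes tested (37.8% higher and 37.5% lower). Their log2 differences ran from -1.74 to 1.73, with a median absolute value of 0.45 (median SE 0.12), beside 0.30 (median SE 0.060) in the background. Of the 70 members that were ventral in polyA, 20 were higher and 23 lower in RBD and the median difference was 0.0031. Of the 30 that were dorsal in polyA, 16 were higher and 6 lower in RBD and the median was 0.40.

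Seen by part, the opposite directions in the libraries mean that the level in RBD relative to polyA differed between the dorsal and the ventral part, and the members came to this in different ways. For 36 members the level was higher in RBD in both parts, for 26 it was lower in both, and for 38 it was higher in 1 part and lower in the other. The last was the case for 1362 of the 11326 background rows. By the rule, the ratio of RBD to polyA differs between the parts in every member, so more opposite signs than in the background are partly built in. The 70 members that were ventral in polyA had a median log2 ratio of RBD to polyA of 0.32 dorsally and -0.25 ventrally, and 32 of them had opposite signs in the parts. The 30 others had medians of 0.079 dorsally and 0.64 ventrally, and 6 had opposite signs. Of the first kind, 18 members were higher and 20 lower in RBD in both parts. Of the second kind, 18 were higher and 6 lower in both. The larger absolute log2 ratio of the second kind was ventral for 20 members and dorsal for 10. Rows 15234 and 14619 were among these 10, with -0.58 and -0.58 dorsally and 0.19 and 0.013 ventrally.

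**Figure D5:**
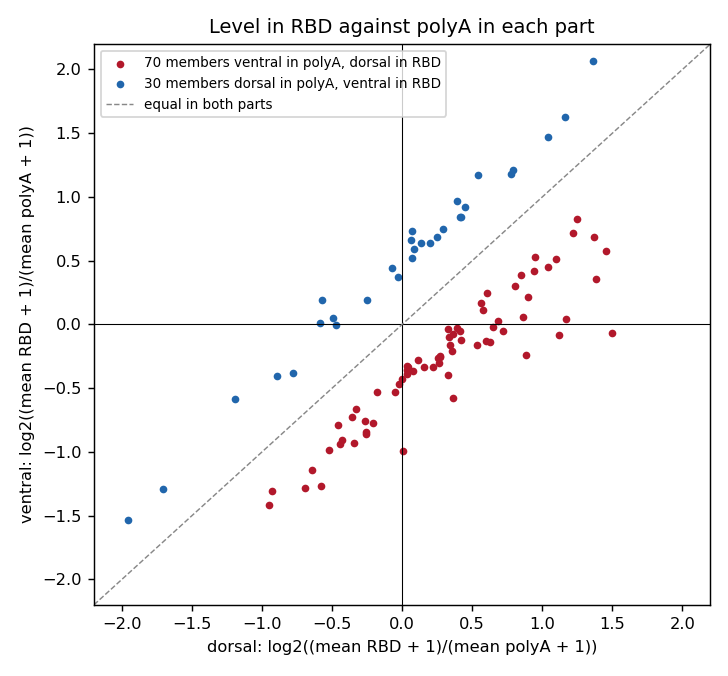
Log2 ratio of the RBD mean to the polyA mean in the dorsal part (horizontal axis) and the ventral part (vertical axis) for the 100 members, with 1 added to each mean. By the rule, red points (ventral in polyA) lie below and blue points (dorsal in polyA) above the dashed line of equal ratios, and 38 members lie in the quadrants of opposite sign.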

How the data were processed

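Per the submitters' processing notes and the paper, the authors used STAR 2.7.9a for mapping (rat build Rnor_6.0), featureCounts 2.0.1 for reads per gene and the median-of-ratios normalization of DESeq2 1.29. The deposited signal values are these counts divided by a size factor, scaled over all 20 samples together. The paper instead describes the normalization as done for each dataset. All values (100%) were whole multiples of 1 read (tolerance 1e-06), which gave back the number of reads. In 7623 rows no sample had a read.

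The members and all comparisons were chosen with earlier results of these data known. Differences were tested with limma 3.58.1 (lmFit, eBayes with a trend, R 4.3.3) on log2(normalized counts + 1), a scale that understates changes at low counts. Genes were kept by filterByExpr of edgeR 4.0.16 on the recovered reads (minimum count 10, minimum total count 15), and p-values were adjusted over all genes by Benjamini-Hochberg, with 0.1 as the threshold. PolyA and RBD samples were fitted alone without an animal term. The interaction was fitted over 20 samples with the animal as a block, and the level over 10 animals. The animal of each sample was read from the replicate number in its title. In polyA the column names of a pair also share a number, and in RBD the column names of a pair differ only in their last digit. The deviations of the paired samples of an animal from the group means, correlated across the background rows, had a correlation of 0.24 to 0.56 in polyA and 0.39 to 0.56 in RBD animals. No sample was left out.

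Rows given by number were the 2 with the largest smaller absolute R in each direction, and 4 more named after their values were seen. Alternatives were edgeR, DESeq2 1.42.0, TMM scaling, other pseudocounts, filters and thresholds, medians in place of means, the block, and leaving out each animal. The fits were tested on simulated data. Gene names, markers and sequences were not used here because the rows have no identifiers. The SDs computed from read numbers cover counting error only.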

Additional observations from a re-analysis of the deposited data

Results flagged for a closer look

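The interaction of part and library type passed limma's adjusted p below 0.1 for 68 members (1439 over all genes), a contrast on which they had been chosen. The count was 2 without the animal as a block (28 over all genes), 21 with DESeq2 (642) and 26 without RBD replicate 3 (459). Its log2 difference, RBD minus polyA, was -0.90 for row 11862, -1.15 for row 32443, 0.74 for row 15234, 0.58 for row 14619, -0.49 for row 16054 and -0.43 for row 27879. For row 32443 the RBD side of this difference came from a log2 ratio of -1.17 in RBD replicate 3, beside -0.05 and -0.03 in the other RBD animals.

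In 2 of the 18 groups of 7 values tested, 1 animal lay apart from the others, and 0.9 such groups are given by chance at 1 in 20. In row 11862 the ventral-to-dorsal log2 ratio was 1.23 in polyA replicate 2 and 0.30 to 0.67 in the other polyA animals. In row 16054 it was -0.15 in polyA replicate 1 and 0.18 to 0.30 in the others.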

How the results depend on the processing

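Which rows were chosen depended on the settings of the rule. Of the 100 members, 43 were among the first 100 when medians replaced means, 61 with a minimum mean of 25 and 52 with a minimum mean of 100. With 1 animal left out, 60 to 88 were, and 60 without RBD replicate 2 or 3. All 100 kept opposite signs under TMM scaling and under size factors computed within each library type, and 94 did with medians. With size factors within each library type, 86 members were among the first 100 rows. Of those 100 rows, 78 were ventral and 22 dorsal in polyA. Members past the threshold in RBD were 36 with the animal as a block, 5 at an adjusted p below 0.05 and 2 to 9 with 1 animal left out, with 2 without RBD replicate 3. For the interaction, 2 members passed without the block, 43 at an adjusted p below 0.05, 21 with DESeq2 and 26 to 70 with 1 animal left out, with 26 without RBD replicate 3. The interaction count over all genes fell too, from 1439 to 28 without the block, 589 at an adjusted p below 0.05 and 642 with DESeq2. With 1 animal left out it was 459 to 1803, with 459 without RBD replicate 3. The RBD count over all genes was 4178, with 5895 with the block and 3112 at an adjusted p below 0.05. It was 2178 to 3232 with 1 animal left out, with 2178 without RBD replicate 3. In polyA, 34 to 53 members passed with 1 animal left out, with 34 without polyA replicate 2, and for the level of RBD against polyA 62 to 68 did. Over all genes, 7450 to 7634 passed in polyA and 10185 to 10660 for the level in these settings. The causes were not tested. edgeR gave 56 members in polyA, 8 in RBD, 62 for the interaction and 67 for the level. Over all genes it gave 8011 of 15152, 4188 of 14699, 1169 of 14174 and 10632 of 14174. Members past the threshold in both library types with opposite directions were 2 without and 31 with the block, which moved the members' counts in polyA and for the level by less than 1.5 times. A median of 130 reads stands behind a member's value, and the SD of the log2 ratio between animals was below that given by counting for 36 members in polyA and 33 in RBD. The latter held for 2377 and 4078 of the 11326 background rows.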
